A study of Homo sapiens with 6 samples.

Results

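The genes that build, attach and remodel the glycosylphosphatidylinositol (GPI) anchor were examined in Kasumi-1 cells treated with I13, an inhibitor of histone deacetylases. The list was set by gene symbol and held 31 genes, of which 29 had a row among the 32364 genes of the deposited expression table. All 29 passed the filter on low values, a mean of at least 0.1 FPKM (fragments scaled to exon length in kilobases and to the mapped fragments of the library), and were tested together with the other genes, 18726 in all. The remaining members, PIGY and PYURF, which are made from 1 shared transcript, were not analysed here. GPI anchor synthesis was among the pathways that the study picked from these same libraries, so the list is not independent evidence of any direction. Kasumi-1 is an established human acute myeloid leukemia line with the t(8;21) translocation that fuses RUNX1 to RUNX1T1. The 3 control libraries came from cells incubated with control and the 3 I13 libraries from cells incubated with 0.5 µM I13, both for 48 h. A single cell line at a single dose and time was used, and a change in the makeup of the culture cannot be told apart from a change in RNA per cell.

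The GPI anchor is a glycolipid that holds many surface proteins in the outer leaflet of the plasma membrane. It is assembled stepwise on phosphatidylinositol in the endoplasmic reticulum, where N-acetylglucosamine, mannoses and ethanolamine phosphates are added in turn. The GPI transamidase then joins the finished anchor to the protein, and lipid remodeling enzymes trim it on the way to the surface. Blood cells depend on the pathway for the complement regulators CD55 and CD59, and acquired loss of PIGA in blood stem cells causes paroxysmal nocturnal hemoglobinuria.

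I13 left the GPI anchor genes close to their control levels. With limma, 0 of the 29 genes passed an adjusted p of 0.05, and the same held for all 18726 genes tested (0%), of which 478 were higher and 485 lower at an unadjusted p under 0.05. PIGW, the acyltransferase of the inositol ring, was the one member with an unadjusted p under 0.05, and it was higher with I13. That is 3.45% of the members beside 2.55% of all genes. No member was lower at this threshold, beside 2.59% of all genes. The fold change was above 0 in 23 of the 29 genes (79.3%), beside 51.8% of all genes. The I13 libraries did not share this tilt. The median log2 deviation of the members from their mean over all 6 libraries was 0.071 and 0.030 in I13 replicates 1 and 3. In I13 replicate 2 it was -0.046, below every control library (-0.037 to 0.011). The differences were small: the median log2 fold change of FPKM + 0.1 was 0.06 over the members and 0.01 over all genes, and single genes ran from -0.14 for PIGV to 0.34 for PIGW. No member reached the log2 fold change of 0.58 that the study set as its minimum. The 95% interval stayed within 0.58 in either direction for 26 of the 29 genes (89.7%), beside 54.1% of all genes. Among genes with a mean of at least 1 FPKM the share was 85.7%, close to that of the members. The interval stayed within 1 for all 29 members, beside 12807 of the 18726 genes tested. The exceptions to the narrower bound were PIGW, PIGP and GPLD1. Summed over the members, the level was 222 ± 9.22 FPKM in control cells and 229 ± 2.97 FPKM in I13-treated cells (SD, n = 3 libraries each). The sums overlapped, since control replicate 3 was at 231.6 FPKM and I13 replicates 2 and 3 were at 227.5 and 226.9 FPKM. A second test, limma voom on fragment numbers recovered from the FPKM values, called 0 members at the adjusted p beside 0.152% of all genes. At the unadjusted p it gave 1 member, again PIGW, beside 5.71% of all genes.

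**Figure D1:**
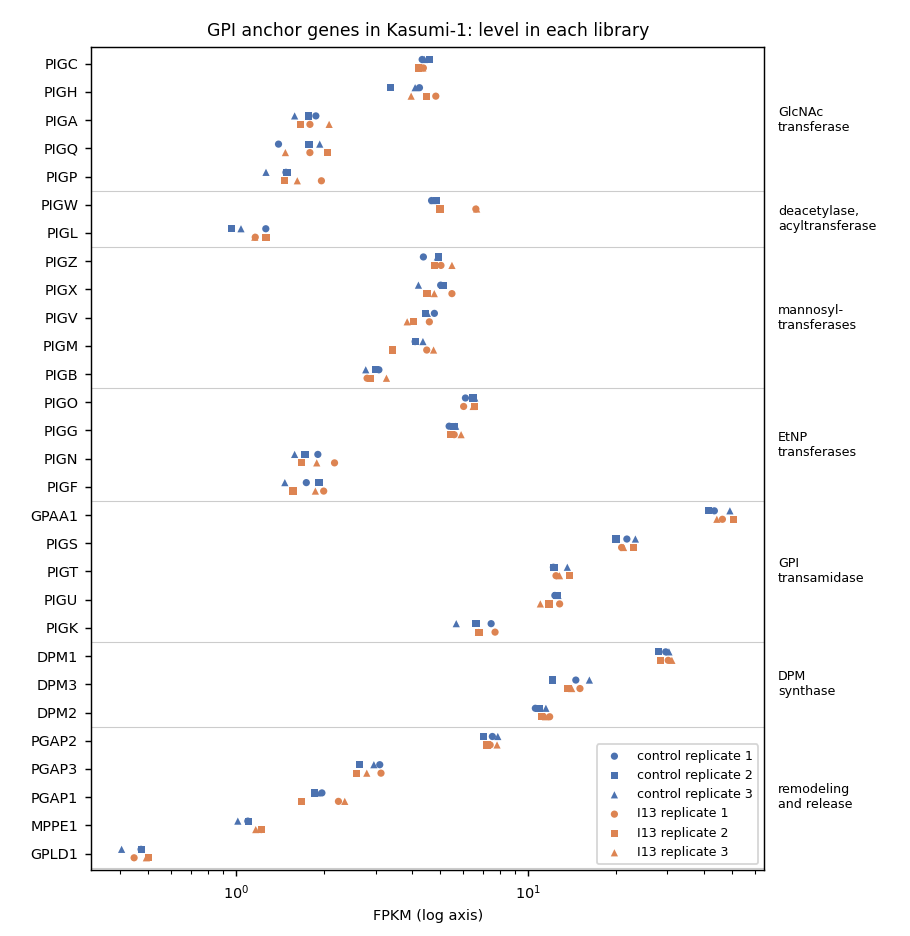
FPKM on a log axis for the 29 GPI anchor genes, grouped by pathway step, with 1 point per library (control in blue, I13 in orange, shape for the replicate number). The control and I13 ranges overlap in 27 genes, and only PIGW and MPPE1 have all 3 I13 libraries above all 3 control libraries.

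The data carry a second split that does not follow treatment. The libraries implied 15281052 to 17221345 mapped fragments, so depth differed little. Over 4133 genes with a mean of at least 10 FPKM, 43.3% of the variance lay on a principal component along which I13 replicate 2 and control replicate 3 stood far from the other 4 libraries. The next component held 20.5% and separated control from I13. Kasumi-1 markers were present: KIT, a receptor tyrosine kinase, lay between 196 and 236 FPKM and RUNX1T1 between 12.5 and 14.4 FPKM, and all 7 markers on the list passed the filter. CD33, a myeloid surface lectin, was at 11.9, 11.8 and 10.8 FPKM in control and 13.7, 13.1 and 12.7 FPKM with I13, with no overlap and an unadjusted p under 0.05 (log2 fold change 0.20, adjusted p = 0.89, limma). Among markers of other blood cells, PPBP was at 0 in every library, and NCAM1 and CD3E were at or below 0.106 FPKM, whereas CD79A reached 2.55 FPKM and NKG7 1.18 FPKM. CD79A was higher in I13 replicate 2 than in the other 5 libraries, and its part in any result was not tested.

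Genes and steps are ranked below by FPKM, which is scaled to annotated exon length, from 622 bases for DPM3 to 19670 for PIGT. The ranks therefore depend on that length. In control replicate 1, PIGP had 202 fragments at 1.48 FPKM and DPM3 156 fragments at 14.6 FPKM. The first step, transfer of N-acetylglucosamine to phosphatidylinositol, was among the parts of the pathway with low FPKM. Its enzyme is a complex around the catalytic subunit PIGA, and the 5 measured subunits had a median of 1.79 FPKM. PIGC had the highest mean over all 6 libraries, close to PIGH, at 4.33, 4.58 and 4.41 FPKM in the control libraries and 4.38, 4.21 and 4.36 FPKM in the I13 libraries. PIGP was the lowest, at 1.48, 1.49 and 1.26 FPKM in control and 1.96, 1.46 and 1.62 FPKM with I13. I13 replicates 1 and 3 of PIGP were above every control library and replicate 2 was not, and the log2 fold change was 0.23 (95% interval -0.13 to 0.59, adjusted p = 0.983, limma). PIGA itself averaged 1.74 ± 0.146 FPKM in control and 1.84 ± 0.216 FPKM with I13. The other subunits were PIGH, with a log2 fold change of 0.18, and PIGQ, with 0.06, and their groups overlapped.

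The next enzymes remove the acetyl group and acylate the inositol. PIGL, the de-N-acetylase, was at 1.26, 0.965 and 1.04 FPKM in control and 1.16, 1.26 and 1.16 FPKM with I13. Its groups overlapped, since control replicate 1 was level with the highest I13 library. PIGW, which adds the acyl chain, was at 4.67, 4.85 and 4.72 FPKM in control and 6.62, 4.99 and 6.66 FPKM with I13. All 3 I13 libraries were above all 3 control libraries, but I13 replicate 2 lay close to the highest control library, whereas replicates 1 and 3 stood well above it. The group means were 4.75 ± 0.094 FPKM and 6.09 ± 0.954 FPKM (SD, n = 3 each), and 219 to 295 fragments lay behind each value. This is a log2 fold change of 0.34 (SE 0.12, 95% interval 0.06 to 0.62). The limma p was 0.0247, with an adjusted p of 0.927, and an exact two-sided permutation test of the mean gave p = 0.1, the smallest that 3 against 3 libraries allows.

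The PIGW difference depended on which libraries were compared. It was 0.47 on the log2 scale among control replicates 1 and 2 and I13 replicates 1 and 3, and 0.08 between control replicate 3 and I13 replicate 2, the libraries that stood apart. Without any one of the 3 control libraries, I13 replicate 1 or I13 replicate 3, the unadjusted limma p was between 0.0615 and 0.0996, and without I13 replicate 2 it was 0.000451.

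PIGW lies at 17:36535020-36539310 on the plus strand (hg38, GENCODE 29) and shares 582 exon bases, 20.8% of its own, with MYO19, a mitochondrial myosin gene on the opposite strand. Whether counting used the strand was not given in the sources used here, so reads in the shared bases may belong to either gene. MYO19, named after its values were seen, was at 5.69, 5.57 and 5.98 FPKM in control and 5.58, 5.96 and 6.24 FPKM with I13. The ranges of its groups overlapped, and its log2 fold change was 0.04 (95% interval -0.13 to 0.22). The annotations differ on where MYO19 starts. In GENCODE 29 its outermost start lies 8415 bases from that of PIGW, so that PIGW falls within MYO19, whereas in RefSeq on GRCh38.p14 the pair start head to head, PIGW at 36534987 on the plus strand and MYO19 at 36534868 on the minus strand. The stretch between these starts, chr17:36534869-36534986, is shown because it is the DNA between the start of the 1 member with an unadjusted p under 0.05 and that of its neighbour. It is 118 bases long, 72.9% GC, and holds 12 CpG dinucleotides. Capitals mark GGGCGG, the GC box core, which was searched on both strands and found once:
PIGW to MYO19 interval: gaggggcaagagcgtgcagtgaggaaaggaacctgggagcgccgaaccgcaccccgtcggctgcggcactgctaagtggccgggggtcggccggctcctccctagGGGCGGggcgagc

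**Figure D2:**
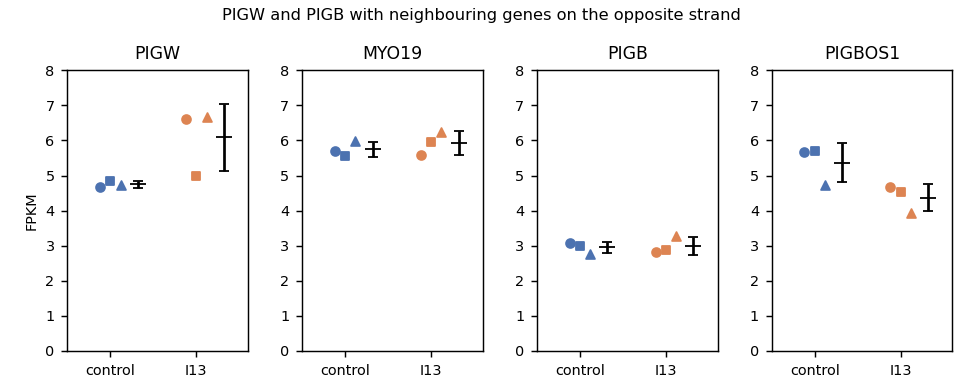
FPKM in each library for PIGW and PIGB and for neighbouring genes on the opposite strand, MYO19 and PIGBOS1, with the group mean and SD (control in blue, I13 in orange). I13 replicates 1 and 3 of PIGW sit at 6.62 and 6.66 FPKM above the control points, MYO19 and PIGB overlap between groups, and the 3 I13 points of PIGBOS1 lie below its 3 control points.

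The mannosyltransferases add the sugar core, and their 5 genes lay close to each other in level, with group means from 2.95 to 5.10 FPKM. PIGZ, which adds a further mannose to some anchors, had the highest mean over all 6 libraries, close to PIGX, at 4.38, 4.94 and 4.89 FPKM in control and 5.03, 4.78 and 5.48 FPKM with I13. PIGB, which adds the third mannose, was the lowest at 3.08, 3.00 and 2.78 FPKM in control and 2.81, 2.88 and 3.27 FPKM with I13. Both overlapped between groups, with log2 fold changes of 0.10 (95% interval -0.10 to 0.31) for PIGZ and 0.01 (-0.22 to 0.25) for PIGB. PIGV, which adds the second mannose, had the lowest fold change of the whole list: 4.58 ± 0.166 FPKM in control against 4.17 ± 0.38 FPKM with I13, a log2 fold change of -0.14 (SE 0.0904, 95% interval -0.35 to 0.08, adjusted p = 0.983, limma). PIGM and its partner PIGX, which add the first mannose, differed in how much they varied: PIGM had a log2 fold change of 0.17 among the 4 libraries and -0.34 between those that stood apart, and PIGX had 0.01 and 0.10.

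PIGB starts beside PIGBOS1, which encodes a small protein of the outer mitochondrial membrane and runs in the opposite direction, and they share 202 exon bases, 4.45% of those of PIGB. PIGBOS1, named after its values were seen, was at 5.68, 5.70 and 4.73 FPKM in control and 4.67, 4.52 and 3.93 FPKM with I13. Its groups did not overlap, though control replicate 3 lay close to the nearest I13 library. The log2 fold change was -0.29 (95% interval -0.54 to -0.03, adjusted p = 0.947, limma), and its unadjusted p was under 0.05 with limma but not with voom, and in 10 of 16 alternatives. Of the 29 genes, 15 shared exon bases with another annotated gene, 12 of them on the opposite strand. For 2 genes, PIGW and MPPE1, the part shared on the opposite strand reached 20% of their exon bases. Within 1000 bases of their start in GENCODE 29, 11 genes, PIGW not among them, had another gene that starts on the opposite strand. These counts were not made over all genes, so whether they are usual is not known here.

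The ethanolamine phosphate transferases showed the same picture. PIGO, which modifies the third mannose and provides the link to the protein, was the highest at 6.10, 6.48 and 6.56 FPKM in control and 6.01, 6.56 and 6.48 FPKM with I13. PIGF, the partner of PIGO and PIGG, was the lowest at 1.74, 1.92 and 1.47 FPKM in control and 1.99, 1.57 and 1.87 FPKM with I13. Their groups overlapped almost fully, with log2 fold changes of -0.01 (95% interval -0.17 to 0.16) for PIGO and 0.08 (-0.28 to 0.44) for PIGF. PIGG, which acts on the second mannose, had a log2 fold change of 0.03, and PIGN, which acts on the first mannose, had 0.13.

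The GPI transamidase was one of the steps with the highest FPKM, with a median of 12.9 FPKM, the 82.3rd percentile of the genes tested. GPAA1, a subunit of the complex, was at 43.4, 41.6 and 49.1 FPKM in control and 46.3, 50.6 and 44.3 FPKM with I13, the highest FPKM of all members. PIGT, with a longer annotated exon length, had more fragments, 4133 against 2444 for GPAA1 in control replicate 1. PIGK, the catalytic subunit, which cuts the GPI attachment signal of the protein, was the lowest of the complex at 7.47, 6.63 and 5.67 FPKM in control and 7.70, 6.78 and 6.75 FPKM with I13. The FPKM of GPAA1 was thus above that of PIGK in every library although both belong to 1 complex. PIGS, PIGT and PIGU lay between them, and the log2 fold changes of the 5 subunits ran from -0.08 for PIGU to 0.11 for PIGK, none with an unadjusted p under 0.05. The intervals of the subunits stayed between -0.24 and 0.37.

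Dolichol phosphate mannose synthase makes the mannose donor, which N-glycan synthesis uses too. Its 3 subunits had a median of 14.3 FPKM, the 84th percentile. DPM1, the catalytic subunit, was at 29.6, 28.0 and 30.4 FPKM in control and 30.2, 28.5 and 31.1 FPKM with I13. DPM2, a further subunit, was at 10.6, 10.9 and 11.5 FPKM in control and 11.8, 11.1 and 11.5 FPKM with I13. The 3 log2 fold changes were between 0.01 for DPM3 and 0.06 for DPM2, and DPM1 had the narrowest interval of the list, -0.10 to 0.16.

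Remodeling and release genes held the member with the lowest level. PGAP2, which takes part in giving the anchor a new fatty acid, was the highest at 7.54, 7.03 and 7.87 FPKM in control and 7.41, 7.23 and 7.82 FPKM with I13. GPLD1, a phospholipase that cleaves anchors and is best known from liver and serum, was the lowest member of the list at 0.472, 0.474 and 0.405 FPKM in control and 0.447, 0.500 and 0.492 FPKM with I13. Only 33 to 41 fragments per library lay behind GPLD1, and its interval, -0.43 to 0.58, was the widest of the list. MPPE1, which removes an ethanolamine phosphate, was at 1.10, 1.10 and 1.01 FPKM in control and 1.22, 1.22 and 1.17 FPKM with I13. Its groups did not overlap, but the difference was small, with a log2 fold change of 0.15 (95% interval -0.16 to 0.47, adjusted p = 0.983, limma) and an exact permutation p of 0.1. MPPE1 shares 29.6% of its exon bases with GNAL on the opposite strand, which averaged 0.0422 FPKM. Together with PIGW it made 2 members with every I13 library above every control library (6.90%), beside 4.88% of all genes, and 0 members had every I13 library below, beside 4.64% of all genes. PGAP1, the inositol deacylase, and PGAP3, which removes a fatty acid, had log2 fold changes of 0.11 and -0.03.

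**Figure D3:**
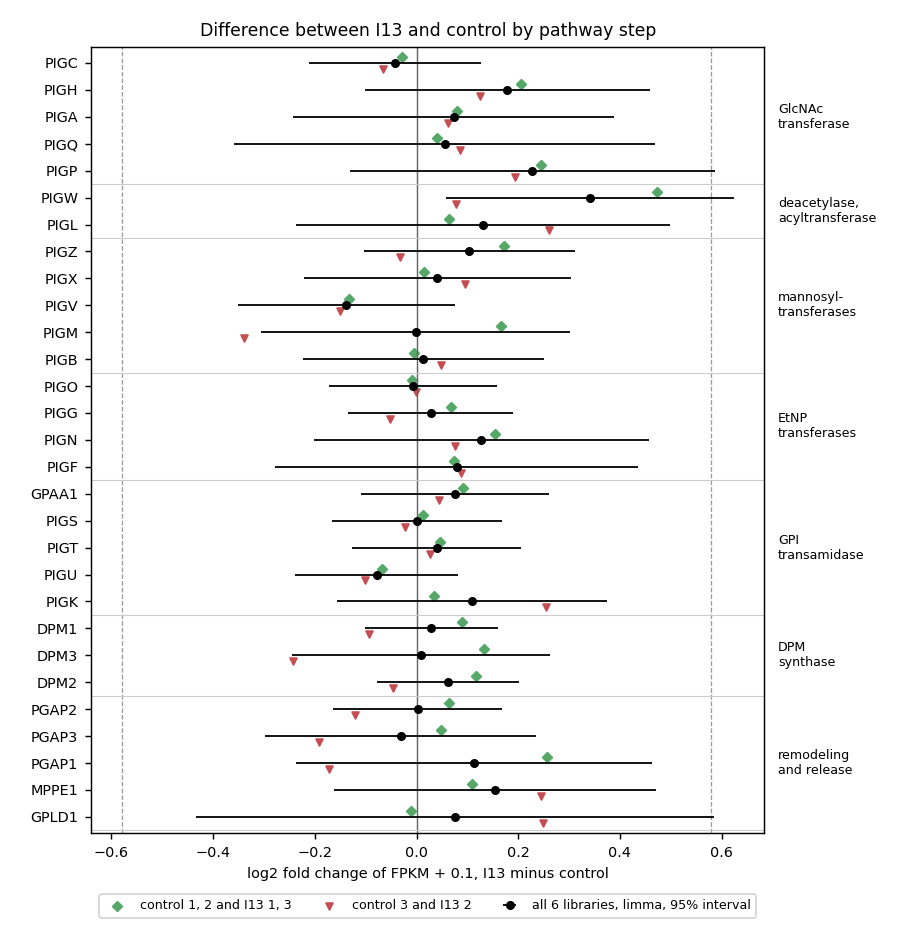
Log2 fold change of FPKM + 0.1, I13 minus control, for the 29 genes by pathway step: black points with 95% limma intervals use all 6 libraries, green diamonds the 4 libraries control 1 and 2 and I13 1 and 3, and red triangles the pair control 3 and I13 2. Dashed lines mark 0.58 in either direction, only the PIGW interval leaves out 0, and diamonds and triangles fall on opposite sides of 0 in genes such as PIGM and DPM3.

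Some members differed between libraries along the second split, as many other genes did. Control replicate 3 and I13 replicate 2 were both above the other 4 libraries in 5 of the 29 genes (17.2%), beside 10.3% of all genes. These were PIGQ, PIGO, GPAA1, PIGS and PIGT. Both were below the other 4 in another 5 genes, PIGA, PIGP, PIGX, PIGN and PIGF (17.2%), beside 17% of all genes. Among genes with a mean of at least 1 FPKM, the shares were 13.6% above and 23.3% below. The split was thus not particular to the members. GPAA1 illustrates the first kind, with 49.1 and 50.6 FPKM in the libraries that stood apart against 41.6 to 46.3 FPKM in the others. PIGF illustrates the second, with 1.47 and 1.57 FPKM against 1.74 to 1.99 FPKM.

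The direction of that shift went with base composition. Over the 29 members, the GC content of a gene's transcripts and its mean shift in the libraries that stood apart had a Spearman correlation of 0.75, and over 11506 genes with a mean of at least 1 FPKM it was 0.64. Over 18668 genes tested, with the low ones included, it was 0.36. The points share the same 6 libraries, so these values describe the libraries and carry no p. Among the 10 members with the lowest GC content (35.6% to 43.1%), control replicate 3 was below the mean of control replicates 1 and 2 in 8, and I13 replicate 2 was below the mean of I13 replicates 1 and 3 in 10. Among the 10 with the highest GC content (54.3% to 65.8%) the counts were 0 and 5. PIGW, with 42.5% GC, was in the first group, and I13 replicate 2 was 0.41 below the other I13 libraries on the log2 scale while control replicate 3 was 0.01 below the other control libraries. The part of base composition in the PIGW difference was not tested. The fold change between I13 and control itself had a Spearman correlation with GC content of -0.27 over the members and -0.02 over the 11506 genes.

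**Figure D4:**
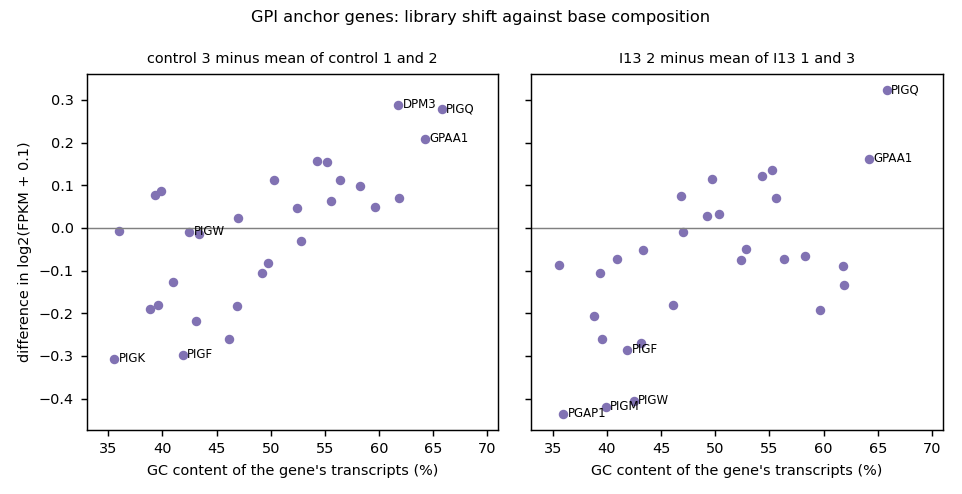
Difference in log2(FPKM + 0.1) of control replicate 3 (left) and I13 replicate 2 (right) from the mean of the other libraries of their group, against the GC content in percent of each gene's transcripts, 1 point per GPI anchor gene. GC-rich genes such as PIGQ and GPAA1 lie above 0 in both panels, and the 10 genes lowest in GC lie below 0 in 8 cases on the left and 10 on the right.

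The genes around the core pathway and the proteins that carry the anchor were also followed. Of 21 other pathway genes tested, among them the TMED cargo receptors that carry anchored proteins out of the endoplasmic reticulum and the enzymes that supply dolichol and GDP-mannose, 1 had an unadjusted p under 0.05 and was higher, beside 2.55% of all genes, and none was lower. It was TMED9, named after its values were seen, at 86.9 ± 4.73 FPKM in control and 95.2 ± 3.52 FPKM with I13, with a log2 fold change of 0.13 (95% interval 0.0029 to 0.26, adjusted p = 0.947, limma). Its groups overlapped, and its unadjusted p was under 0.05 in 7 of 16 alternatives and not with voom. The median log2 fold change of these 21 genes was 0.06, and 16 of them had a fold change above 0 (76.2%, beside 51.8% of all genes). In the related list of 42 genes of N-glycan transfer and protein entry into the endoplasmic reticulum, 1 gene was higher at an unadjusted p under 0.05 (2.38%, beside 2.55% of all genes) and none was lower (beside 2.59%). Of the 42 genes, 29 had a fold change above 0 (69.0%, beside 51.8% of all genes). That gene was SSR4, a subunit of the translocon-associated complex, at 47.0, 44.6 and 48.4 FPKM in control and 52.6, 53.4 and 50.9 FPKM with I13. Its groups did not overlap, and the log2 fold change was 0.16 (95% interval 0.05 to 0.28, adjusted p = 0.875, limma).

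Genes for GPI-anchored proteins showed no common direction. Of 58 with a row, 33 passed the filter, 15 of these had a fold change above 0, and their median log2 fold change was -0.04. The most highly expressed were LY6E, a lymphocyte antigen, with a mean of 150.2 FPKM, PRSS21, a serine protease, with 102 FPKM, NRN1, a neuritin, with 22.1 FPKM, PRNP, the prion protein, with 19.2 FPKM, and SMPDL3B, a phosphodiesterase, with 17.8 FPKM. In none of these 5 did the unadjusted limma p fall under 0.05, and their log2 fold changes ran from -0.20 for SMPDL3B to 0.09 for LY6E. NRN1 and SMPDL3B were lower with I13 at an unadjusted p under 0.05 with voom, and every I13 library of NRN1 was below every control library. The margin was small, with 21.15 FPKM in I13 replicate 1 and 21.21 FPKM in control replicate 3. Without control replicate 1 the log2 fold change of NRN1 was -0.083, beside -0.18 with all 6 libraries. Over the 16 alternatives, SMPDL3B and NRN1 were each under 0.05 in 3, and the log2 fold change of SMPDL3B was -0.32 among the 4 libraries.

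Among the 33 anchored-protein genes, 1 was lower and 2 were higher at an unadjusted p under 0.05, beside 2.59% and 2.55% of all genes, and none passed the adjusted p. With voom, 5 of the 32 genes of this list that it covered were under an unadjusted 0.05, beside 5.71% of all genes. Of these, BST1, NRN1 and SMPDL3B were lower and MELTF and CD59, named after its value was seen, were higher. The values of CD59 are not reported here. BST1 (CD157), an ectoenzyme of myeloid cells, was lower, at 12.3, 12.7 and 12.9 FPKM in control and 9.69, 11.2 and 10.5 FPKM with I13. Every I13 library of BST1 was below every control library, and its log2 fold change was -0.27 (95% interval -0.43 to -0.11, adjusted p = 0.787, limma). It was -0.31 among the 4 libraries and -0.19 between those that stood apart, and its unadjusted p was under 0.05 in all 16 alternatives. MELTF, melanotransferrin, was higher, at 8.71, 9.14 and 10.6 FPKM in control and 10.9, 11.1 and 10.8 FPKM with I13. Its lowest I13 library was just above control replicate 3, and the log2 fold change was 0.20 (95% interval 0.01 to 0.40, adjusted p = 0.947, limma). The unadjusted p of MELTF was under 0.05 in 8 of the 16 alternatives, voom included, and not without any single library except control replicate 3. ULBP2, a ligand of the NKG2D receptor, was higher from a low level, at 1.21, 0.734 and 1.12 FPKM in control and 1.58, 1.29 and 1.5 FPKM with I13. Between 17 and 34 fragments per library lay behind ULBP2, and its log2 fold change of 0.50 had an interval from 0.01 to 0.99 (adjusted p = 0.947, limma). Its unadjusted p was under 0.05 in only 5 of the 16 alternatives and not with voom, and leaving out control replicate 2 lowered its log2 fold change to 0.30.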

How the data were processed

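The 6 libraries (3 control, 3 I13) were grouped by their titles. mRNA of Kasumi-1 cells was sequenced from libraries of a stranded kit. The authors deposited 1 table of FPKM values with Ensembl gene identifiers. The submitters' processing notes name Trimmomatic, HISAT2, Cufflinks, HTSeq and hg38. Versions, annotation release and the strand setting of counting were not given in the sources used here. Symbols, coordinates and exon lengths came from GENCODE 29, which named 32244 of the 32364 genes, and promoter sequence from RefSeq (GRCh38.p14). FPKM times exon length gave whole fragments (within 0.01) for 25771 of 27002 genes above 0 (95.4%), and a common step gave 1322 more.

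The main test was limma 3.58.1 (R 4.3.3) with a variance trend on log2(FPKM + 0.1) for genes with a mean of at least 0.1 FPKM, two-sided, with Benjamini-Hochberg adjustment over all 18726 genes. Fold changes on this scale understate those of low genes. The scripts were tested on simulated data in which some genes were changed 2-fold. At the adjusted p, the main test called 107 of 196 changed genes and also 25 unchanged genes. Voom called 134 of 148 changed genes and 8 unchanged genes. The main test can thus miss a 2-fold change. The tests covered unlike genes, 18622 with the main test and 13797 with voom, which leaves out genes with few fragments. Their rates therefore cannot be compared directly. The simulated counts held no second split between libraries, so the rates in the real data may differ. Alternatives were another pseudocount, filter, scaling or variance model, voom with TMM on recovered fragments (mean of at least 10), a replicate term, a term for or removal of the libraries that stood apart, and leaving out each library. The study describes its experiments as independent repeats. The labels do not say whether the 3 libraries of a group came from separate cultures, and if they did not, p-values measure technical spread.

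Members and lists were chosen with earlier results of these data known. Values in every library are given for members with an unadjusted p under 0.05 or with no overlap between groups, and for the highest and lowest of each step by the mean over all libraries. Of the other lists they are given for genes that meet both criteria, with mean levels for the 5 highest anchored-protein genes. The comparisons with base composition, neighbouring genes, copies and motifs were chosen after the values were seen. Some markers of other blood cells are not reported here.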

Additional observations from a re-analysis of the deposited data

How the results depend on the processing

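No member passed the adjusted p under any of the 16 alternatives run. The count of members with an unadjusted p under 0.05 was 1, rose to 2 with the 4 libraries alone, where DPM2 joined PIGW, and was 0 to 1 when single libraries were left out. PIGW was at or above 0.05 without any single library but I13 replicate 2, and PIGV, lower, was under 0.05 without I13 replicate 1. The median log2 fold change of the members kept its sign and moved by less than the spread between libraries throughout. With the 4 libraries alone, the log2 fold change was -0.0099 for GPLD1, 0.049 for PGAP3, -0.0051 for PIGB and 0.17 for PIGM. Median scaling gave -0.0020 for PGAP2 and -0.0031 for PIGS, voom -0.0024 for PGAP2 and -0.0035 for PIGS, and log2(FPKM + 1) 0.00068 for PIGM. Leaving out single libraries spanned 0 for DPM1 (-0.0042 to 0.064), DPM3 (-0.11 to 0.10), PGAP2 (-0.041 to 0.039), PGAP3 (-0.10 to 0.033), PIGA (-0.013 to 0.14), PIGB (-0.053 to 0.054), PIGF (-0.020 to 0.17), PIGG (-0.0039 to 0.053), PIGM (-0.090 to 0.14), PIGO (-0.038 to 0.032), PIGQ (-0.073 to 0.17), PIGS (-0.056 to 0.054), PIGT (-0.0054 to 0.091) and PIGX (-0.046 to 0.10). The filters, the variance trend, the replicate block and the term for the libraries that stood apart cannot change the fold change of a gene. Only the other alternatives could move a sign. In all, 15 of the 29 genes changed sign under at least 1 alternative and 14 did not. The cause was not tested.

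The deviations of same-numbered control and I13 libraries from their group means had correlations of 0.083, -0.070 and -0.017. Control replicate 1 correlated best with I13 replicate 1, and control replicate 2 with I13 replicate 3 (0.085). Control replicate 3 correlated best with I13 replicate 2 (0.072), and these are the libraries that stood apart. All these Pearson correlations were weak, so they cannot tell whether the numbers pair the samples. By ranks, the shifts of control replicate 3 and I13 replicate 2 had a Spearman correlation of 0.37 over 11506 genes. That match runs across the replicate numbers. The rank correlation was not computed for the other pairs. With a replicate block, 1 member, PIGW, had an unadjusted limma p under 0.05 (0.0395). In this balanced layout the block cannot change a log2 fold change, so the 0.34 of PIGW was fixed in advance. Low genes are limited by depth, with 33 to 41 fragments per library for GPLD1.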

Other observations

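Copies of member genes elsewhere in the genome can take reads that belong to the member. PIGCP1, a copy of PIGC on chromosome 11, had 62 to 78 fragments per library assigned to it and a log2 fold change of 0.05 (95% interval -0.18 to 0.29). Exact matches were few, since 7 of the 50-base stretches of PIGC occurred in it. Whether its fragments came from PIGCP1 or from PIGC was not tested. For PIGH, 3.32% of such stretches occurred in PIGHP1, which had 2 to 10 fragments per library, and for PIGU 4.32% occurred in PIGUP1, which had at most 2. GPAA1P2 had 0 fragments in every library. Values of PIGC, PIGH and PIGU are uncertain to that extent.

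Start-site windows, from 250 bases before to 50 bases after the start in RefSeq, were found for 25 of the 29 members. An ETS motif, CCGGAAG on either strand, was present in 9 of them (36.0%), beside 21.6% of 7825 coding genes with a mean of at least 1 FPKM and 10.7% of all 27305 windows. A GC box, GGGCGG on either strand, was present in 48.0% of the members' windows, 72.1% of these coding genes and 44.6% of all windows. CCAAT was present in 32%, 37.4% and 35.7%, the E-box CACGTG in 4.0%, 10.7% and 7.43%, and TATAAA in 4.0%, 4.81% and 12%. These are counts of letters in fixed windows and were not tested.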
